A study of Homo sapiens with 6 samples.

Results

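The solute carriers (SLC) are the membrane proteins that move small molecules into and out of cells and organelles. The genes described here are those with a symbol of SLC and a family number that were detected in LNCaP, a prostate cancer line derived from a lymph node metastasis that responds to androgen. A gene was taken as detected when the detection p of a probe was under 0.01 on 3 or more of the 6 arrays. The prostein gene SLC45A3 and the SLCO family were left out. This gave 170 of the 375 SLC genes with a probe, among 8968 detected genes of all kinds. The arrays fall into 2 groups, 3 of cells given siRNA against TCTP and 3 of control cells given siRNA against the firefly enzyme luciferase (Luc), which has no human target. All cells were grown in RPMI medium with 10% serum, changed to medium without serum for the transfection with 100 nM siRNA in Oligofectamine, and collected after 72 h. TCTP is the translationally controlled tumour protein, encoded by TPT1, and the study asked which genes depend on it in prostate cancer cells. Each sample was measured on an Illumina HumanWG-6 v3 beadchip array. The samples of a group are called biological replicates in the series record. As no source used here says whether they were transfected on separate days, the p-values measure the spread between these samples only.

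Carriers are grouped into families by sequence, and members of a family mostly share a kind of substrate. Some use the sodium or proton gradient to pull their substrate against its own gradient, some exchange a substrate for another, and others let it flow down its gradient. In the prostate the best known are the zinc transporters and the carriers of citrate and aspartate, since the luminal epithelium accumulates zinc and secretes citrate. Amino acid and glucose carriers supply the growth of prostate cancer cells. The families were sorted here into groups by their main substrate, so that a family stays whole even where a single member carries something else.

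Values are quantile-normalized log2 intensities, and a change is the mean of TCTP siRNA minus the mean of Luc siRNA on that scale. The 6 arrays were alike in depth, with 12828 to 13741 detected probes and medians of the deposited intensities of 35.6 to 43.4. Since background was not subtracted, the changes of dim probes are compressed, and precision is limited throughout by the number of arrays. TPT1 has 2 detected probes here. On the dimmer one it fell by 0.75 (SE 0.11, limma adjusted p = 0.00328 over all kept probes) with no overlap between groups. On the brighter one the change was -0.19 (SE 0.11, adjusted p = 0.47) and the groups overlapped. That probe lay at 13.83 to 14.22, near the top of the intensity range, and whether its change is compressed there was not tested. The study reports a significant knockdown in mRNA and in protein, without showing these data. All 6 luminal prostate markers with a probe were detected on every array. Their summed deposited intensity was 10329 to 12222 in Luc siRNA and 9107 to 10506 in TCTP siRNA. These sums are not normalized, so they also carry the differences in scale between arrays. None of the basal, fibroblast or leukocyte markers with a probe was detected on any array. Of 3 endothelial markers, VWF alone was detected, with a change of -0.30. Of the luminal markers KLK2 had -0.36 (SE 0.12, adjusted p = 0.138) and TMPRSS2 -0.42 (SE 0.11, adjusted p = 0.0604), both without overlap like VWF, and the other 4 had -0.03 to 0.05. None of these markers was called. The part of these marker values in the values below was not tested.

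Which carriers these cells expressed differed by substrate. Of the 375 SLC genes, 45.3% were detected, against 48% of all genes with a probe. Among the groups of over 20 genes with a probe, carriers of organelles and of metals were detected most often. The mitochondrial carrier family SLC25 had 32 of 45 genes detected (71.1%), the metal carriers 21 of 32 (65.6%), and the carriers of nucleosides and nucleotide sugars, most of which sit in the Golgi, 22 of 37 (59.5%). In the same groups, the carriers of organic ions, bile salts and amines were detected least often. Many of them are known from liver, kidney and nerve, and 8 of 46 genes were detected (17.4%). The neurotransmitter transporter family SLC6 had 3 of 18, the sodium-coupled glucose transporter family SLC5 had 2 of 12, and the phosphate and vesicular glutamate transporter family SLC17 had 0 of 9. Members came from 47 of 57 families. As these shares follow from the rule that chose the members, they are a description.

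**Figure D1:**
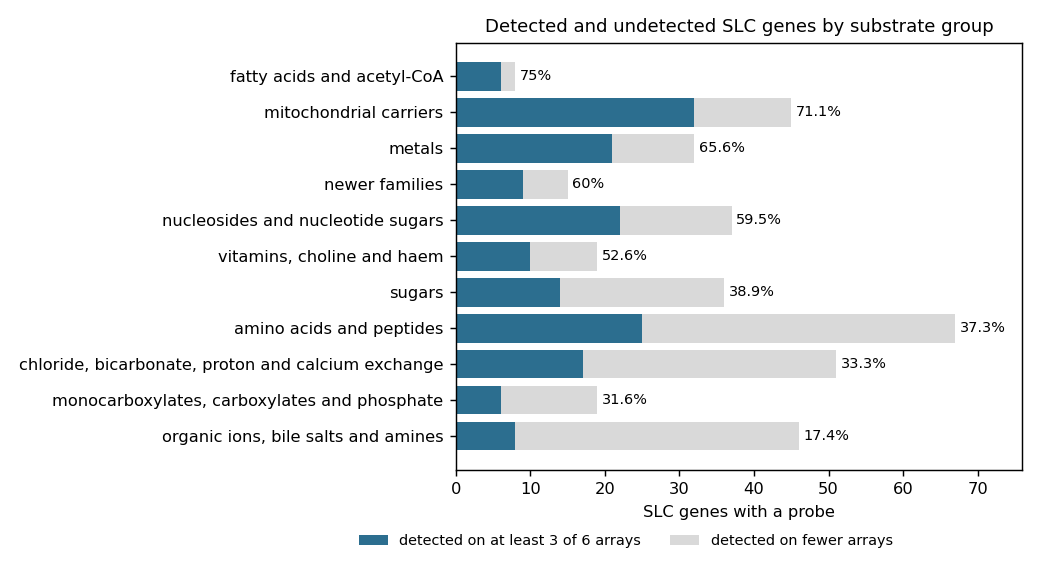
Number of SLC genes with a probe (horizontal axis) in each substrate group, split into those detected on at least 3 of 6 arrays (dark) and on fewer (light), with the percent detected beside each bar. The share runs from 17.4% of the carriers of organic ions, bile salts and amines to 71.1% of the mitochondrial carriers and 75% of the small group of fatty acid carriers.

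The detection rule left few genes near its edge. Of the 170 members, 162 were detected on all 6 arrays and 8 on 3 to 5, while 196 SLC genes were detected on none. No member was undetected on all arrays of a group. Just inside the rule, on 3 arrays, lay the mitochondrial carrier SLC25A30 at a mean log2 intensity of 6.00, the zinc transporter SLC30A6 at 6.03 and SLC45A4 at 6.00. Just outside it, on 2 arrays, lay the dicarboxylate carrier SLC13A3 at 6.01 and the sulfate carrier SLC26A2 at 5.86. Of the members, 6 encode no carrier of their own. These are the transcription regulator SLC2A4RG, the adaptor SLC4A1AP, SLC7A6OS on the strand opposite SLC7A6, the long non-coding RNA SLC9A3-OT1, and the pseudogenes SLC7A5P2 and SLC71A3P. The probes of SLC7A5P2 and SLC7A5, and those of SLC6A8 and its pseudogene, may share signal.

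Promoters were searched for the elements of 2 responses that are known to act on some carriers. The interferon-stimulated response element is bound by the factors that interferon activates, and its core was searched as GAAA, any 2 bases and GAAA again. The C/EBP-ATF composite element, bound by ATF4 when amino acids run short, was searched as TGATGNAA. Both were searched on both strands from 250 bases before to 50 bases after each start, in the promoters of RefSeq on the assembly GRCh38.p14. Promoters were found for 144 of the 170 members, 211 windows in all. The first element was in 4 windows (1.9%), against 3.57% of all promoters, and the second in 8 (3.79%), against 3.62%. Over the promoters of the tested genes the shares were 2.74% and 1.97%. None of the windows of the called genes below held either. A few of the matching promoters, which belong to named carriers, are given with the match in capitals, 5′ to 3′ on the strand of the gene. SLC1A5 is the glutamine carrier ASCT2, SLC25A22 a mitochondrial glutamate carrier, and SLC37A1 a sugar phosphate carrier. They lie at chr19:46784884-46784931 (minus strand), chr11:796309-796358 (minus strand) and chr21:42513791-42513840 (plus strand).
SLC1A5: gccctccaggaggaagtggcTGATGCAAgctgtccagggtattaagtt
SLC25A22: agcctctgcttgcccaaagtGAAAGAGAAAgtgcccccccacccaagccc
SLC37A1: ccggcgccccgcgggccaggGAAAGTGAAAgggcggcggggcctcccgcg
The matches began at -97, -100 and -41 bases from the start of their window, which in all 3 genes is an alternative start inside the gene, as RefSeq lists another further upstream. The changes of these 3 genes were -0.09 (SE 0.10, limma adjusted p = 0.738), 0.30 (SE 0.10, adjusted p = 0.14) and -0.04 (SE 0.10, adjusted p = 0.896), and none was called. A match describes the letters only.

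TCTP siRNA was followed by small changes in a few carriers, and most did not differ beyond the spread between arrays. At an adjusted p under 0.05, 4 members fell and 2 rose. This is 2.35% lower, 1.18% higher and 3.53% in all, beside 1.52% lower, 1.04% higher and 2.55% in either direction of all 8968 genes, so that the share of called members was close to the background. The 4 that fell were the Golgi nucleotide sugar transporter family member SLC35A5, the bile salt and steroid carrier subunit SLC51A, the arginine and lysine transporter SLC7A2 and the mitochondrial outer membrane protein SLC25A46. The 2 that rose were the monoamine transporter SLC29A4 and the phosphate transporter SLC20A1. None of them was changed by as much as 1.5-fold, and the member with the smallest p was at rank 112 among all genes.

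Over all 170 members the median change was -0.02 log2 units, against 0.00 for all genes, and the middle 50% lay between -0.15 and 0.10. The range was from -0.55 to 0.47. In 29 members all arrays of TCTP siRNA were below all arrays of Luc siRNA and in 20 they were all above. These 49 are 28.8% of the members, beside 21.2% of all genes (10.8% lower and 10.4% higher). At an unadjusted p under 0.05 there were 19 lower and 17 higher members, or 11.2% and 10.0%, beside 8.04% and 7.58% of all genes. For 153 members (90%) the 95% interval of the change lay within 1.5-fold in both directions, as it did for 92.0% of all genes.

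**Figure D2:**
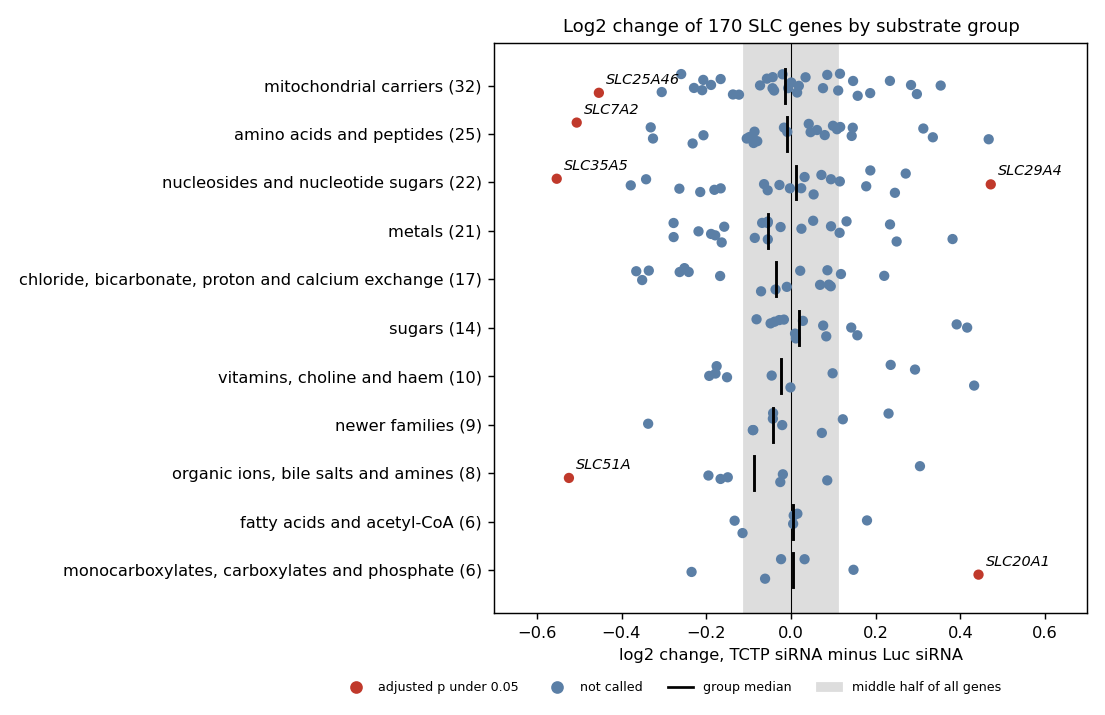
Log2 change, TCTP siRNA minus Luc siRNA (horizontal axis), of each of the 170 SLC genes by substrate group, with the number of members in parentheses. Red points are the 6 genes with an adjusted p under 0.05, black bars are group medians, and the grey band is the middle 50% of all genes, from -0.11 to 0.11; every group median lies inside it.

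The nucleotide sugar transporters of family SLC35 bring activated sugars and sulfate donors into the Golgi and endoplasmic reticulum, where glycans are built. SLC35A5 is a Golgi member whose own substrates are less settled than those of its relatives. Its log2 intensity was 10.07, 10.05 and 9.77 with Luc siRNA and 9.39, 9.36 and 9.47 with TCTP siRNA. Every array of TCTP siRNA was below every array of Luc siRNA. The gene fell by 0.55 (SE 0.11, limma adjusted p = 0.0162), a 1.47-fold lower intensity, with means of 9.96 ± 0.17 and 9.41 ± 0.06 (SD, n = 3). SLC35A3, the carrier of UDP-N-acetylglucosamine, was at 9.45, 9.35 and 9.51 in Luc siRNA and at 9.01, 9.03 and 9.14 in TCTP siRNA. The groups did not overlap, and with -0.38 (SE 0.10) its adjusted p was 0.0653.

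The transporters of the sulfate donor PAPS, SLC35B2 and SLC35B3, had changes of opposite sign. SLC35B3 had -0.34 (SE 0.11, adjusted p = 0.141 by limma), with no overlap between groups, and SLC35B2 had 0.27 (SE 0.14, adjusted p = 0.377), with overlap. The CMP-sialic acid transporter SLC35A1 had -0.21 (SE 0.11, adjusted p = 0.384) and overlapping groups, and the orphan SLC35E3 had -0.26 (SE 0.11, adjusted p = 0.269) without overlap. Of the 19 SLC35 genes, 5 were lower without overlap and 0 higher, 1 was called, and the median was -0.03. Of all genes, 10.8% were lower and 10.4% higher without overlap, and 1.52% were called lower. Among the 5 was SLC35F2, with -0.17 on its brightest probe and 0.003 on a further one, where the groups overlapped. The difference between SLC35 and the other families was not tested.

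SLC35A5 starts within 83 bases of ATG3, an enzyme of autophagy that is read from the other strand, so that a single stretch of promoter lies between their starts. It is shown because SLC35A5 had the smallest p of the members (GRCh38.p14, chr3:112561963-112562044, plus strand, 5′ to 3′).
Interval between ATG3 and SLC35A5: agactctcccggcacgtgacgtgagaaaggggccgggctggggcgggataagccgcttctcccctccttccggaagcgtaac
ATG3 had a change of -0.15 (SE 0.10, limma adjusted p = 0.528). Whether the changes of the pair differ was not tested. In all, 38 members have a neighbour that starts within 1000 bases on the other strand, and in 12 pairs both were tested. The 1 called neighbour was CYP39A1, an oxysterol hydroxylase beside SLC25A27, with -0.49 (SE 0.11, adjusted p = 0.0373), while SLC25A27 had -0.12 (SE 0.10, adjusted p = 0.598). The call on CYP39A1 held without replicate 3 of TCTP siRNA, and without any other array its adjusted p was 0.063 to 0.162.

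In the nucleoside family SLC29, the equilibrative carriers, SLC29A4 encodes the plasma membrane monoamine transporter, which takes up serotonin, dopamine and organic cations. Its log2 intensity was 7.67, 7.85 and 7.84 in Luc siRNA and 8.40, 8.20 and 8.17 in TCTP siRNA. All 3 arrays of TCTP siRNA were above those of Luc siRNA. The gene rose by 0.47 (SE 0.11, limma adjusted p = 0.0338), a 1.39-fold higher intensity, with means of 7.79 ± 0.10 and 8.26 ± 0.12 (SD, n = 3). The other 2 detected members of the family, SLC29A2 and SLC29A3, had changes of 0.05 and 0.02 and overlapping groups.

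Among the carriers of organic ions and bile salts, SLC51A encodes the alpha subunit of the organic solute transporter, which exports bile salts and steroid conjugates together with a beta subunit. It was a dim probe, at 6.84, 6.77 and 6.73 in Luc siRNA and at 6.01, 6.34 and 6.42 in TCTP siRNA. The groups did not overlap, and replicate 1 of TCTP siRNA was the lowest array. The gene fell by 0.52 (SE 0.12, limma adjusted p = 0.0334), or 1.44-fold, with means of 6.78 ± 0.06 and 6.26 ± 0.22 (SD, n = 3). Its partner SLC51B was detected on no array. The orphan organic ion transporter SLC22A23 had 0.30 (SE 0.10, adjusted p = 0.16), with all arrays of TCTP siRNA above those of Luc siRNA.

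The families of amino acid, peptide and creatine carriers held 25 members, 23 of them carriers, and 1 was called, with a lower value. Beside this, 1.52% of all genes were called lower and 1.04% higher. SLC7A2 is the cationic amino acid transporter CAT-2, which takes up arginine, lysine and ornithine. It was at 7.74, 7.85 and 7.57 in Luc siRNA and at 7.35, 6.97 and 7.32 in TCTP siRNA. All arrays of TCTP siRNA were below those of Luc siRNA, and replicate 2 was the lowest. The gene fell by 0.51 (SE 0.12, limma adjusted p = 0.0487), or 1.42-fold, with means of 7.72 ± 0.14 and 7.21 ± 0.21 (SD, n = 3). The housekeeping cationic transporter of the same family, SLC7A1, had -0.10 (SE 0.11, adjusted p = 0.714) and overlapping groups.

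The creatine transporter SLC6A8 had values of 7.79, 7.77 and 7.86 in Luc siRNA and 8.64, 8.08 and 8.09 in TCTP siRNA. Replicate 1 of TCTP siRNA stood above the rest, and the change of 0.47 (SE 0.14) had an adjusted p of 0.104 by limma. In family SLC38, whose members carry glutamine and other neutral amino acids, 5 of 6 changes were above 0 and 3 of these had no overlap between groups. Of all 8968 genes 4514 had a change above 0, and 10.4% were higher without overlap. Among the 3 was SLC38A10, with 0.08 on its brightest probe and 0.008 on a further one, where the groups overlapped. SLC38A7, a glutamine exporter of the lysosome, had 0.31 (SE 0.09, adjusted p = 0.11), with 6.26, 6.19 and 6.16 in Luc siRNA and 6.51, 6.52 and 6.52 in TCTP siRNA. SLC38A9, the lysosomal arginine sensor that acts on mTORC1, had 0.34 (SE 0.11, adjusted p = 0.14), with 7.29, 7.10 and 7.001 in Luc siRNA and 7.46, 7.36 and 7.57 in TCTP siRNA. Neither was called.

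The amino acid response is the programme by which ATF4 raises carriers when amino acids run short. Of 9 listed carriers of that response 7 were tested, and 0 were called at an adjusted p under 0.05 with limma. At an unadjusted p under 0.05, 2 were lower, beside 8.04% of all genes. The median change was -0.10, with 6 of 7 below 0, against 0.00 over all genes, of which 4454 of 8968 were below 0. SLC7A5, the large neutral amino acid transporter LAT1, was at 7.50, 7.35 and 7.58 in Luc siRNA and at 7.31, 7.10 and 7.03 in TCTP siRNA, with a change of -0.33 (SE 0.11, adjusted p = 0.148). Its heavy chain SLC3A2 had -0.21 (SE 0.17, adjusted p = 0.598) and a wide spread in both groups. SLC6A9, the glycine transporter GlyT1, was at 7.98, 7.80 and 7.89 in Luc siRNA and at 7.48, 7.74 and 7.47 in TCTP siRNA, with -0.33 (SE 0.11, adjusted p = 0.151). These last values had no overlap, and the adjusted p of SLC6A9 was 0.0483 to 0.397 over its 19 alternatives. It was lowest without replicate 2 of TCTP siRNA, the one nearest to the controls, so this p is no support for a change. The cystine carrier SLC7A11 (0.05), SLC1A5 and the neutral amino acid carrier SLC38A2 (-0.01) were close to 0 with overlapping groups, and SLC1A4 and SLC7A3 were detected on no array.

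The mitochondrial carriers were the largest group, with 32 members, of which 1 was called lower (3.12%) and 0 higher. Of all genes, 1.52% were called lower and 1.04% higher. SLC25A46 differs from its relatives in that it sits in the outer membrane, where it takes part in mitochondrial division and in membrane upkeep. It was at 8.76, 8.55 and 8.51 in Luc siRNA and at 8.12, 8.06 and 8.27 in TCTP siRNA. No array of TCTP siRNA reached the lowest of Luc siRNA. The gene fell by 0.45 (SE 0.11, limma adjusted p = 0.0441), or 1.37-fold, with means of 8.61 ± 0.13 and 8.15 ± 0.11 (SD, n = 3).

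The inner membrane carriers in which the groups did not overlap had changes of either sign. The glutamate carrier SLC25A22 was at 8.93, 8.96 and 8.80 in Luc siRNA and at 9.16, 9.24 and 9.18 in TCTP siRNA. SLC25A4, the ADP/ATP exchanger ANT1, had 0.28 (SE 0.10, adjusted p = 0.175 by limma), and its other probe had 0.26. The iron importer mitoferrin-1, SLC25A37, had -0.26 (SE 0.10, adjusted p = 0.231), and mitoferrin-2, SLC25A28, had -0.21 (SE 0.10, adjusted p = 0.345). The citrate carrier SLC25A1, which passes citrate from the matrix to the cytosol, was at 8.94, 8.997 and 9.14 in Luc siRNA and at 9.40, 9.62 and 9.12 in TCTP siRNA. Replicate 3 of TCTP siRNA lay among the controls, and the change of 0.35 (SE 0.13) had an adjusted p of 0.18. Without that array the adjusted p was 0.0456, and over its 19 alternatives it was 0.0456 to 0.409. The array was singled out by its own value, so the smaller p is no support for a change. The dicarboxylate carrier SLC25A10 had 0.16 (SE 0.13, adjusted p = 0.598).

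SLC25A28 and SLC25A30 also belong to 5 SLC genes that screens list as interferon-stimulated, of which 4 had a probe and 2 were tested. Neither was called. SLC25A30 was at the edge of detection, at 5.85, 6.49 and 6.11 in Luc siRNA and at 6.12, 5.54 and 5.88 in TCTP siRNA, with -0.31 (SE 0.17, limma adjusted p = 0.418). SLC15A3 and SLC1A1 were detected on no array.

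Phosphate enters most cells by the sodium-coupled carriers PiT-1 and PiT-2, encoded by SLC20A1 and SLC20A2. SLC20A1 was at 9.39, 9.55 and 9.48 in Luc siRNA and at 10.04, 9.82 and 9.89 in TCTP siRNA. All arrays of TCTP siRNA were above those of Luc siRNA. The gene rose by 0.44 (SE 0.10, limma adjusted p = 0.0399), or 1.36-fold, with means of 9.47 ± 0.08 and 9.92 ± 0.11 (SD, n = 3). SLC20A2 was at 7.27, 7.03 and 6.97 in Luc siRNA and at 6.76, 7.02 and 6.79 in TCTP siRNA, with -0.23 (SE 0.12, adjusted p = 0.351) and overlapping groups. The difference between the changes of the pair was not tested. The 4 detected monocarboxylate transporters of family SLC16 had changes between -0.06 and 0.15, and all overlapped.

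**Figure D3:**
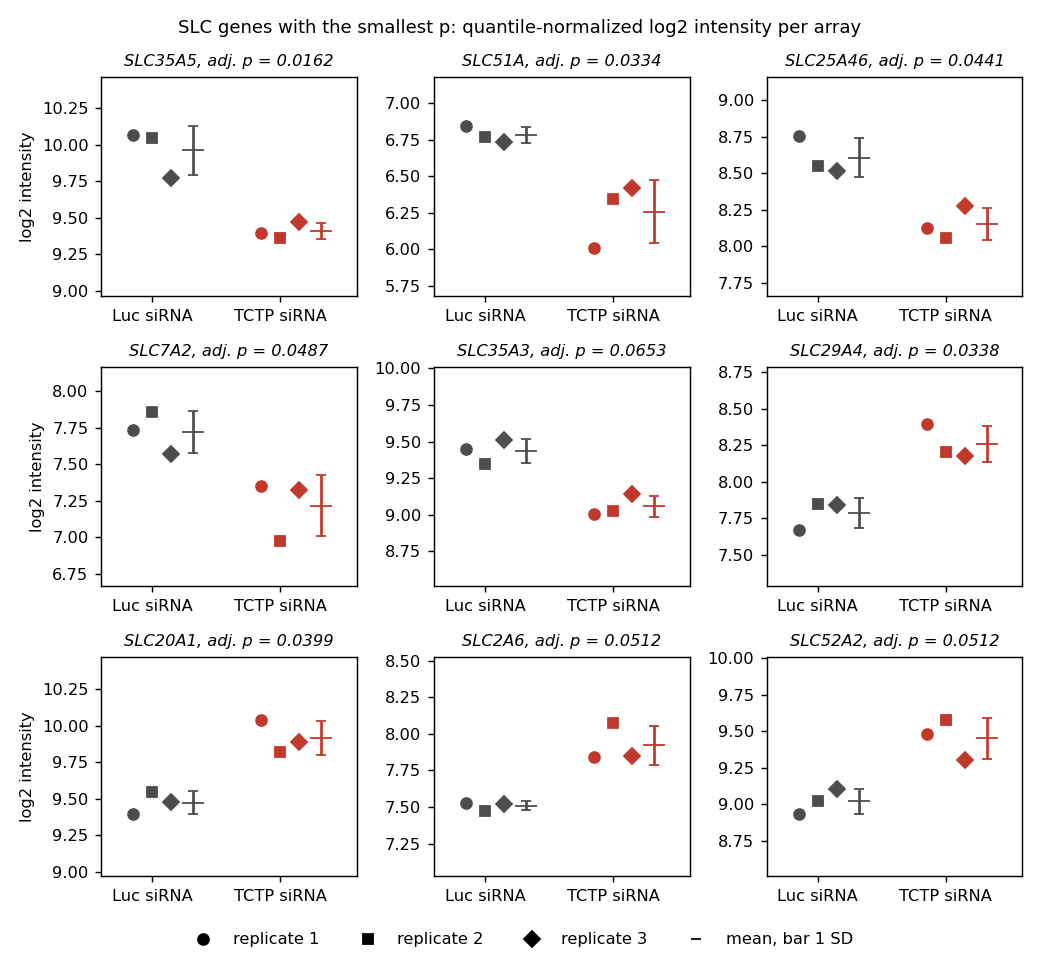
Quantile-normalized log2 intensity (vertical axis, a scale of its own in each panel) of the 9 SLC genes with the smallest p on each array, for Luc siRNA (grey) and TCTP siRNA (red), with the mean and 1 SD of 3 arrays beside the points. In all 9 genes the groups do not overlap; the 6 with an adjusted p under 0.05 are SLC35A5, SLC51A, SLC25A46, SLC7A2, SLC29A4 and SLC20A1.

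Of the 14 members of the sugar families, 13 of them carriers, 0 were called with limma at an adjusted p under 0.05, while 2 were higher at an unadjusted p under 0.05, beside 7.58% of all genes. SLC2A6, the glucose transporter GLUT6 of the lysosome, was at 7.53, 7.47 and 7.52 in Luc siRNA and at 7.84, 8.08 and 7.85 in TCTP siRNA. The groups did not overlap, and the change of 0.42 (SE 0.10) had an adjusted p of 0.0512. SLC2A6 was called under 3 of 19 alternatives, among them without replicate 3 of TCTP siRNA (adjusted p = 0.0487), and its adjusted p ran from 0.0419 to 0.193. SLC2A1, the glucose transporter GLUT1, was at 9.23, 9.44 and 9.11 in Luc siRNA and at 9.85, 9.23 and 9.88 in TCTP siRNA. Replicate 2 of TCTP siRNA lay among the controls, and the change of 0.39 (SE 0.16) had an adjusted p of 0.24. Without that array the change was 0.60 and the adjusted p was 0.0172, and over its 19 alternatives the adjusted p was 0.0172 to 0.58. As that array was singled out by its own value, the smaller p is no support for a change.

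Among the carriers of vitamins, choline and haem, SLC52A2, the riboflavin transporter, was nearest to a call. It was at 8.93, 9.02 and 9.11 in Luc siRNA and at 9.48, 9.58 and 9.30 in TCTP siRNA, without overlap. Its change was 0.43 (SE 0.11, limma adjusted p = 0.0512). SLC52A2 was called under 4 of 19 alternatives, among them without replicate 3 of TCTP siRNA (adjusted p = 0.0278), and its adjusted p ran from 0.0278 to 0.186. As replicate 3 lay nearest to the controls, the smaller p without it is no support for a change. The choline transporter SLC44A1 had 0.29 (SE 0.11, adjusted p = 0.218) and the lysosomal SLC49A4 had 0.24 (SE 0.10, adjusted p = 0.26), both without overlap. The relative of the former, SLC44A2, had -0.18 (SE 0.10, adjusted p = 0.412), also without overlap. Of the 10 members 0 were called, and 3 were higher at an unadjusted p under 0.05, beside 7.58% of all genes.

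The 21 metal carriers include the zinc importers of family SLC39 and the zinc exporters of family SLC30, by which prostate epithelium sets its zinc. None was called at an adjusted p under 0.05 with limma, and 2 were lower and 1 higher at an unadjusted p under 0.05, beside 8.04% and 7.58% of all genes. SLC39A8, the zinc and manganese importer ZIP8, was at 8.29, 8.20 and 8.13 in Luc siRNA and at 8.54, 8.34 and 8.89 in TCTP siRNA. The groups did not overlap, but the arrays of TCTP siRNA were spread, and the change of 0.38 (SE 0.13) had an adjusted p of 0.162. A further probe gave 0.47 (adjusted p = 0.207), with overlapping groups. Without replicate 2 of TCTP siRNA, the one nearest to the controls, the adjusted p was 0.0411, and over its 19 alternatives it was 0.0411 to 0.489. A smaller p follows from leaving out such an array and is no support for a change. The importer SLC39A11 had -0.28 (SE 0.10, adjusted p = 0.187) and the copper transporter SLC31A2 had -0.28 (SE 0.11, adjusted p = 0.223), both without overlap. The zinc exporter of the cell surface, SLC30A1, which zinc itself induces, had -0.22 (SE 0.10, adjusted p = 0.329), and the importer SLC39A6 had 0.25 (SE 0.12, adjusted p = 0.357).

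In the families that exchange chloride, bicarbonate, protons, sulfate and calcium, 0 of 17 members were called with limma, while 6 were lower and 1 higher at an unadjusted p under 0.05. This is 35.3% lower, beside 8.04% of all genes. Of the 15 that are carriers, 5 were lower and 0 higher, since the higher gene was the adaptor SLC4A1AP and a lower one the RNA SLC9A3-OT1. The retinal sodium and calcium exchanger SLC24A1 was at 7.32, 7.11 and 7.44 in Luc siRNA and at 6.87, 6.99 and 7.01 in TCTP siRNA, with -0.34 (SE 0.11, adjusted p = 0.138). The sulfate carrier SLC26A11 was at 8.23, 8.01 and 8.06 in Luc siRNA and at 7.51, 7.81 and 7.93 in TCTP siRNA, with -0.35 (SE 0.12, adjusted p = 0.164). Neither had overlapping groups. The bicarbonate transporter SLC4A4 had -0.37 (SE 0.14, adjusted p = 0.231), but replicate 3 of TCTP siRNA at 7.64 was above replicate 3 of Luc siRNA at 7.55.

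All 4 members of the sodium and proton exchanger family SLC9, which sets the pH of the cytosol and of organelles, had changes below 0. SLC9D1 was at 9.27, 9.27 and 9.28 in Luc siRNA and at 8.88, 9.19 and 9.0003 in TCTP siRNA, with -0.25 (SE 0.11, limma adjusted p = 0.261). SLC9A8, an exchanger of the Golgi, had -0.24 (SE 0.10, adjusted p = 0.276), SLC9A2 had -0.17 (SE 0.12, adjusted p = 0.541), and the long non-coding RNA SLC9A3-OT1 had -0.26 (SE 0.11, adjusted p = 0.242). The groups overlapped in SLC9A2 alone, and SLC9A3-OT1 is no exchanger. None of the 4 was called. Of all 8968 genes, 4454 had a change below 0, and 10.8% were lower without overlap.

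The remaining groups held few genes and 0 calls with limma at an adjusted p under 0.05, with 1 gene at an unadjusted p under 0.05. That gene was SLC66A3, of the PQ-loop family, at 8.75, 8.82 and 8.94 in Luc siRNA and at 8.48, 8.44 and 8.57 in TCTP siRNA, with -0.34 (SE 0.10, adjusted p = 0.104) and no overlap. The molybdate carrier SLC61A1 had 0.23 (SE 0.11, adjusted p = 0.32). Of the 6 carriers of fatty acids and acetyl-CoA, the very long chain fatty acid carrier SLC27A2 had 0.18 (SE 0.10, adjusted p = 0.412) and SLC27A3 had -0.11 (SE 0.11, adjusted p = 0.681).

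**Figure D4:**
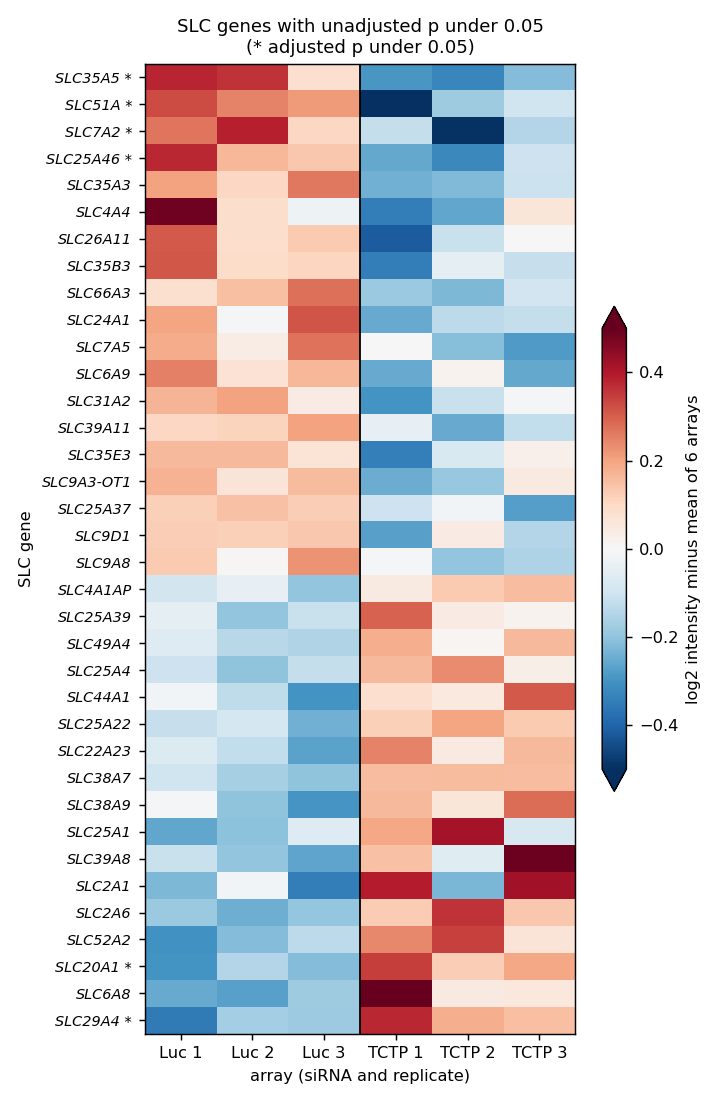
Log2 intensity minus the gene's mean over the 6 arrays (colour) of the 36 SLC genes with an unadjusted p under 0.05, on each array of Luc siRNA (left 3 columns) and TCTP siRNA (right 3 columns), ordered by their change. The 19 lower genes are at the top and the 17 higher genes at the bottom; single arrays depart from their group in genes such as SLC2A1, SLC4A4 and SLC25A1.

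The carriers work with partners and regulators that are no carriers themselves. Of 25 such genes listed, 18 were tested, of which 1 was called lower (5.56%) and 0 higher, and the median change was -0.07. Over all genes, 1.52% were called lower and 1.04% higher, and the median was 0.00. The called gene was TXNIP, an arrestin-like protein that removes GLUT1 from the cell surface. It was at 10.53, 10.17 and 10.27 in Luc siRNA and at 9.48, 9.96 and 9.80 in TCTP siRNA, without overlap. TXNIP fell by 0.58 (SE 0.14, limma adjusted p = 0.0407), or 1.49-fold, with means of 10.32 ± 0.19 and 9.74 ± 0.24 (SD, n = 3). The call on TXNIP was lost without replicate 1, 2 or 3 of Luc siRNA (adjusted p = 0.166, 0.0695 and 0.106) or replicate 1 of TCTP siRNA (0.188), and over its 19 alternatives the adjusted p was 0.0175 to 0.188. The beta subunit of the sodium pump, ATP1B1, had 0.53 (SE 0.14, adjusted p = 0.0633) and no overlap between groups.

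The spread between arrays of a group was of the order of the changes. The median SD of a member was 0.10 in Luc siRNA and 0.13 in TCTP siRNA, and 7 and 19 members had an SD over 0.25. SLC38A2, which cells raise within hours when amino acids run short, had the widest spread, with 9.92, 9.40 and 9.51 in Luc siRNA and 9.58, 9.23 and 9.99 in TCTP siRNA. The orphan SLC35E1 had 9.02, 9.75 and 9.22 in Luc siRNA. In both genes the spread within a group was larger than the change between groups, which was -0.01 and 0.19.

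A further check came from genes with more than 1 kept probe. These were 33 members with 40 further kept probes, and 137 members had 1 kept probe. The 6 called members each had 1 kept probe, so that none of these calls has a repeat on another kept probe. Of the further probes, 27 had the sign of the brightest probe and 13 the opposite one, with a median distance of 0.09 between the changes, and 0 were called with limma over all kept probes, of which 1.13% were called lower and 0.794% higher. The zinc importer SLC39A3 had the widest disagreement. Its brightest probe gave -0.09 and 2 further ones gave -0.18 and 0.34. The S-adenosylmethionine carrier SLC25A26 had -0.04 on its brightest probe and 0.22 and -0.33 on the others. The carnitine carrier SLC25A20 gave -0.17, -0.22 and 0.21.

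**Figure D5:**
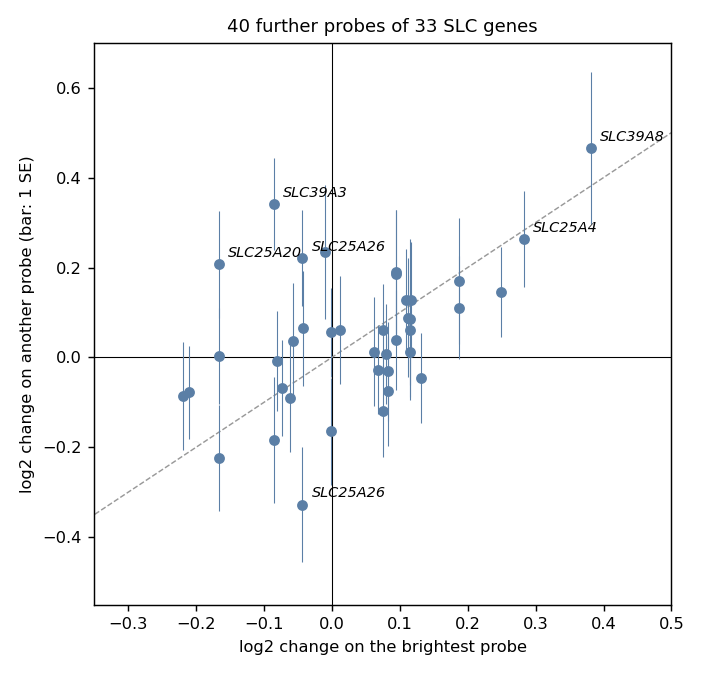
Log2 change on a further probe (vertical axis, bar 1 SE) against the change on the brightest probe (horizontal axis) for 40 further probes of 33 SLC genes, with the line of equality dashed. Most lie near 0 on both axes, SLC39A8 and SLC25A4 lie near the line at the upper right, and 1 probe each of SLC39A3 and SLC25A20 departs most from it.

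The calls changed with the arrays used. Without replicate 1 or replicate 2 of Luc siRNA, or without replicate 1 of TCTP siRNA, 0 members were called with limma, while all genes gave 67, 55 and 53 lower and 40, 30 and 36 higher. Without replicate 3 of Luc siRNA only SLC35A5 was called, beside 65 lower and 38 higher of all genes. Without replicate 2 of TCTP siRNA 3 lower and 4 higher members were called, with 4 of the 6 calls kept. All genes then gave 170 lower and 145 higher (3.51%, against 4.12% of the members). Without replicate 3 of TCTP siRNA 4 lower and 5 higher members were called, with all 6 kept. All genes then gave 158 lower and 105 higher (2.93%, against 5.29% of the members). Over 19 alternatives the adjusted p was 0.01 to 0.24 for SLC35A5, 0.0177 to 0.166 for SLC51A, 0.025 to 0.201 for SLC29A4, 0.0289 to 0.208 for SLC20A1, 0.0315 to 0.367 for SLC25A46 and 0.0385 to 0.364 for SLC7A2. The sign of each of these 6 changes was the same in all 19. This was nearly fixed in advance, since the groups of these genes did not overlap and several alternatives reuse the same log2 change.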

How the data were processed

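RNA of 6 samples of LNCaP cells was hybridised to 1 array each. Per the labels the scans were read by BeadStudio, whose version the sources used here do not give. The authors deposited probe summary intensities, neither normalized nor background-subtracted, with a detection p-value per probe. The authors also deposited intensities normalized by quantiles in J-Express, an alternative here, which lay within 0.0305 log2 units of the values computed from the former.

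With limma 3.58.1 (R 4.3.3), quantile normalization was applied and log2 values were taken. A probe was kept if 3 or more of the 6 arrays had a detection p under 0.01. Of 48803 probes, 27578 had 1 gene symbol in the platform annotation, 13 had several and 21212 had none listed. The 11439 kept probes with 1 symbol gave 8968 genes, each represented by its brightest probe. The groups were compared with lmFit and eBayes, adjusted by Benjamini-Hochberg over all genes. The fit was tested on simulated data. Detection p-values and intensities were paired as checked from their rank correlation. No group of solute carriers was given a test of its own.

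The members and lists were chosen with earlier results of these data known. The text names TPT1, called members, the 2 members with the smallest p of each substrate group, tested members of the lists of amino acid response and interferon-responsive carriers, called partners, genes at the edge of detection, and pseudogenes or other members that encode no carrier. All other genes named were chosen after their values were seen. Alternatives were the authors' normalized values, median scaling, cyclic loess, neqc (offset 16) and normexp (offset 50), other detection filters, other uses of several probes, a replicate block, eBayes with trend and robust, an adjusted p under 0.01 and each array left out. Beadchip and scan date are not in the files, and no batch was used. Python 3.11.15 with matplotlib 3.10.9 drew the figures.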

Additional observations from a re-analysis of the deposited data

How the results depend on the processing

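The count of called members, 4 lower and 2 higher, was within 1.5 times with the authors' values, cyclic loess, normexp, detection on all 6 arrays or at p under 0.05, and eBayes with trend and robust. These settings called 2.15% to 2.65% of all genes. It was 2 lower and 1 higher with neqc (1.76% of the members, against 2.43% of all genes). Without a detection filter it was 4 and 4 (2.13% of the SLC genes, against 1.59% of all genes). It was also 4 and 4 with the mean of a gene's probes (4.71%, against 3.1%). With every kept probe it was 2 and 2 (2.35%, against 1.93% of the probes). It was 0 and 0 with median scaling or at an adjusted p under 0.01. Over all genes these 2 settings gave 35 lower and 17 higher (median scaling) and 56 and 32 (adjusted p under 0.01). Each array left out in turn gave 0 to 4 lower and 0 to 5 higher members, beside 53 to 170 and 30 to 145 of all genes. Samples with the same replicate number did not deviate together (correlations of -0.07, -0.06 and -0.40), so that the numbers do not pair the arrays, and the fit with the replicate number as a block called 0 members lower and 0 higher, and 72 and 44 of all genes. Median scaling moved the median of all genes from 0.00 to 0.03 and that of the members from -0.0179 to 0.0192. The sign turned for SLC38A2 (0.0323 with median scaling, -0.204 to 0.175 with an array left out), SLC39A3 (0.0242 with the mean of the probes of the gene, -0.196 to 0.0503 with an array left out), and, with an array left out, SLC25A26 (-0.132 to 0.0526), SLC37A1 (-0.11 to 0.00999) and SLC7A11 (-0.000282 to 0.112), none of them called in the fits where it turned. The cause of these differences was not tested. Signal close to background limits the dimmest members, such as SLC51A, SLC38A7 and SLC25A30.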
